A study of Mus musculus with 12 samples.

Results

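The genes described here are 9 chemokine genes (Ccl2, Ccl7, Ccl8, Ccl20, Cxcl1, Cxcl5, Cxcl12, Cxcl14 and Cx3cl1) and Csf1, the gene of macrophage colony-stimulating factor. They were chosen by name as secreted factors of fibroblasts, with earlier results of these data known. Counts among them, set beside shares of all genes, are therefore descriptions and not a test of the group. Every probe for them was taken, which gave 13 of the 39429 probes on the array. A gene was tested when the scanner software called 1 of its probes well above background on every array of some group, and 9 of the 10 genes passed, among 19575 genes or unnamed transcripts tested in all. The gene that did not pass was Ccl20, the ligand of CCR6, which was above background on 0 of 12 arrays.

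RNA came from primary mouse embryonic fibroblasts, mixed mesenchymal cells grown from mid-gestation embryos (E12.5), on 1-colour Agilent arrays with 3 arrays per group. The groups were Itpr2 KO cells after 5 passages (KO late), wild-type cells after 5 passages (WT late), Itpr2 KO cells after 3 passages (KO early) and wild-type cells after 3 passages (WT early). The Itpr2 protein lets calcium out of the endoplasmic reticulum when it binds inositol trisphosphate, and the labels name no further allele, strain or agent. The series' design text gives 3 independent animals per genotype for the fibroblasts, and the extent of the deletion in the gene is not given there.

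Chemokines are small secreted proteins that bind G protein-coupled receptors and guide the movement of leukocytes, and stromal fibroblasts are a common source of them. Ccl2, Ccl7 and Ccl8 attract monocytes, Cxcl1 and Cxcl5 attract neutrophils through the receptor Cxcr2, and Cxcl12 holds cells that carry Cxcr4 in place. Csf1 keeps macrophages alive and dividing through the receptor Csf1r. Many inflammatory chemokine genes are switched on by the transcription factor NF-kB and are part of the secretory response of ageing fibroblasts.

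Across the 12 arrays, 59.1% to 67.5% of probes were well above background and 0 spots were saturated, and correlations between arrays of a group ran from 0.985 to 0.997. Values below are log2 signals minus the 75th percentile of the array, so that 1 unit is a 2-fold step and a value of 0 equals the 75th percentile. They compare arrays for 1 probe and not probes with each other. The Itpr2 probe did not separate the genotypes, with means of 1.76 in KO late, 1.61 in WT late, 1.35 in KO early and 0.951 in WT early, and where it lies relative to the deletion is not given, so it does not check the labels. Xist, which coats the inactive X chromosome of female cells, was above background on KO late replicates 1 and 2, WT late replicate 1 and WT early replicate 1, and on 0 of 3 KO early arrays. KO late replicates 1 and 2 therefore differed in this from the KO early arrays of the same number. Ddx3y, a gene of the Y chromosome, was at -0.14, -7.56 and 0.95 on KO late replicates 1, 2 and 3, and at 0.76, 0.76 and 0.82 in KO early. In WT cells Ddx3y was at -7.05, 0.82 and 0.95 on late replicates 1, 2 and 3, and at -7.43, 0.83 and 0.88 on the early ones. The labels do not say whether arrays of the same number share an embryo. By these genes, KO late replicates 1 and 2 do not hold the same material as KO early replicates 1 and 2. Passage and source material therefore cannot be told apart between KO late and KO early cells. Each call on the brightest probe of the 10 genes that rests on KO late replicates 1 and 2 is given with and without both, as are counts for the listed genes. Differences that were not called are mostly given with both arrays only. Each slide held 1 array of each group, always in the same place, so that place on the slide and group cannot be told apart. Fibroblast markers were detected for 16 of 16 listed genes, and 22 of 22 macrophage markers were detected as well.

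The stretch before the start of a gene carries much of its response to inflammatory signals, so 3 of these stretches are printed for genes that changed below. RefSeq promoter entries (build GRCm38.p6) matched 7 of the 10 genes, namely Ccl8, Ccl20, Cxcl1, Cxcl12, Cxcl14, Cx3cl1 and Csf1. The 250 bases before the annotated start were searched on both strands for an NF-kB motif, the AP-1 motif TGANTCA, the TATA box TATAAA and the GC box GGGCGG, and matches are in capitals. Cxcl1 (chr5:90890995-90891244, plus strand) and Csf1 (chr3:107760470-107760719, minus strand) hold NF-kB matches, and Cx3cl1 (chr8:94771930-94772179, plus strand) holds none.
Cxcl1: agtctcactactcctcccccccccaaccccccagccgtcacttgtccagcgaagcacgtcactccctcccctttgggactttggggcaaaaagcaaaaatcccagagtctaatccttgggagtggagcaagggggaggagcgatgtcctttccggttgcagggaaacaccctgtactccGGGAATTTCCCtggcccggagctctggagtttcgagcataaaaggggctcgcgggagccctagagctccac
Csf1: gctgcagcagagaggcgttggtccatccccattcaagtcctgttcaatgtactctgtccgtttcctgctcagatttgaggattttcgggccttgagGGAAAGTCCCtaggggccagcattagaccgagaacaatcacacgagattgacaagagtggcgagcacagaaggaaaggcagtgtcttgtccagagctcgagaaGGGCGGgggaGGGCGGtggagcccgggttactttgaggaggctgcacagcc
Cx3cl1: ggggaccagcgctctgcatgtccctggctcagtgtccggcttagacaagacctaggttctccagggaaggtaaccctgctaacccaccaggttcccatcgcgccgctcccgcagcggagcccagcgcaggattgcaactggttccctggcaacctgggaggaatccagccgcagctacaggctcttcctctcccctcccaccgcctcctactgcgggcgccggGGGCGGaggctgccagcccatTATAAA
In the Cxcl1 stretch the capitals are 2 overlapping NF-kB matches, 1 on each strand, that together span bases -71 to -61 before the start. In the Csf1 stretch they are an NF-kB match at -154 to -145 on the opposite strand, and 2 GC boxes at -51 to -46 and -41 to -36. In the Cx3cl1 stretch they are a GC box at -27 to -22 and a TATA box at -6 to -1. Of the 7 stretches, 3 held the NF-kB motif (Cxcl1, Csf1 and Ccl20), against 7.25% of 32851 promoters, 3 held the GC box (Csf1, Cx3cl1 and Cxcl12), against 32.7%, and 2 held the TATA box (Ccl8 and Cx3cl1), against 12.4%. The AP-1 motif was in 0 of 7, against 6.75% of all promoters. A match describes these letters and does not show that a factor binds there.

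The first comparison asked how KO cells differ from WT cells after 5 passages. In KO late cells Ccl2 and Csf1 were lower and Cxcl1 was higher than in WT late cells. That is 3 of 9 tested genes past an adjusted p of 0.05, where 7.84% of all genes passed, 3.46% as higher and 4.37% as lower. The groups did not overlap for 5 of the 9 genes (Ccl2, Csf1, Cxcl1, Cxcl5 and Cxcl12), as for 39.3% of all genes. The median log2 difference over the 9 genes was 0.16, against -0.00824 over all genes. The plot of each gene's signal by array shows these values.

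**Figure D1:**
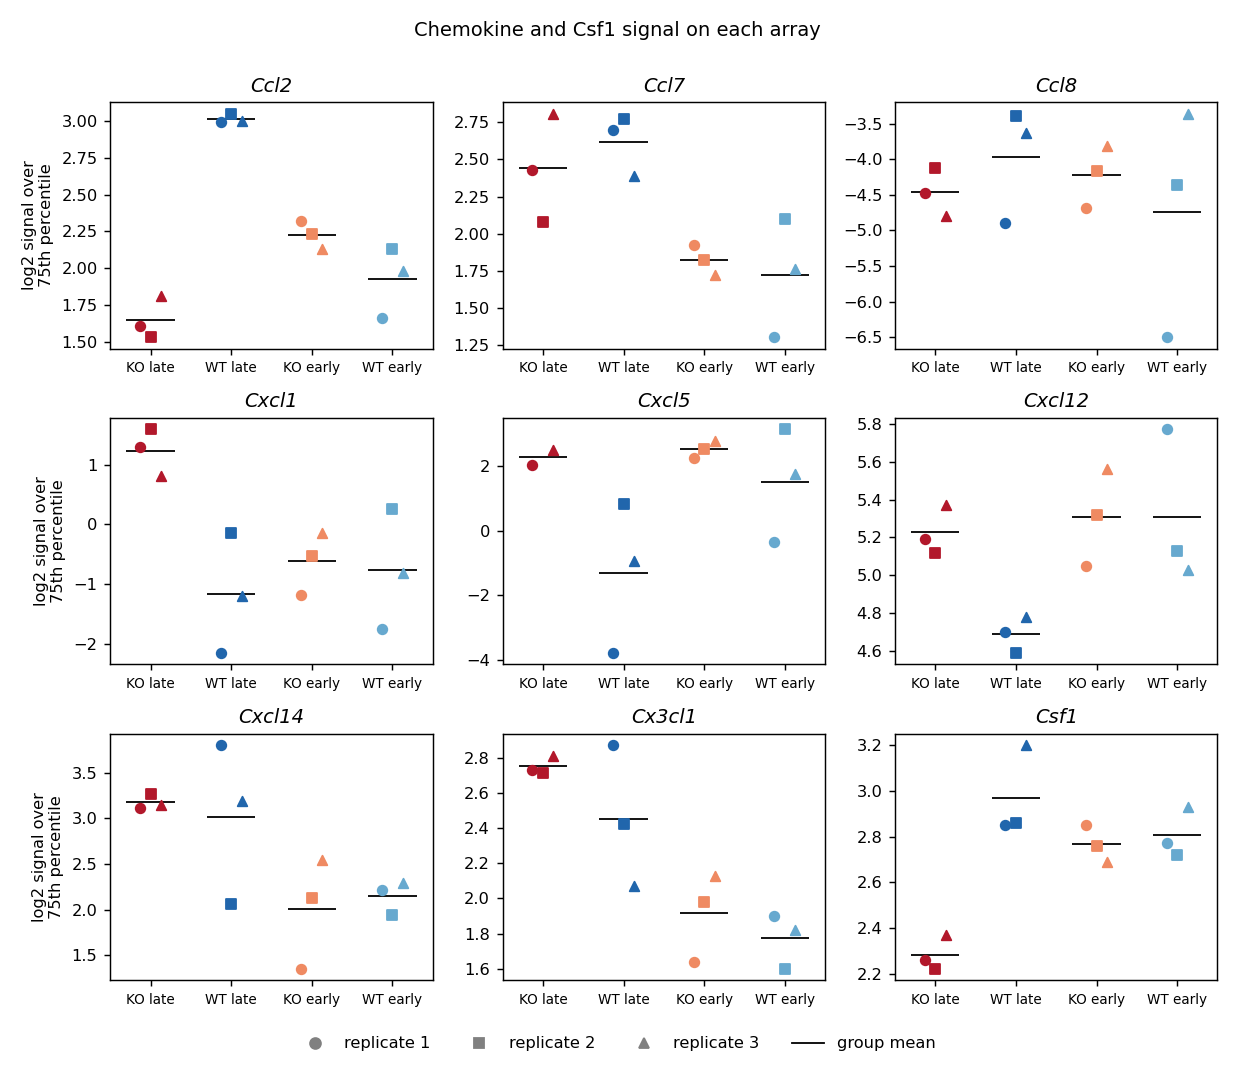
Each panel plots 1 gene, with the log2 signal over the array's 75th percentile on the vertical axis and the groups KO late, WT late, KO early and WT early from left to right. Points are arrays, shaped by replicate number, and lines are group means. The 3 WT late arrays lie at 2.99 to 3.05 for Ccl2, above the other 9 arrays, and the 3 KO late arrays lie at 2.22 to 2.37 for Csf1, below the other 9.

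Ccl2, the main attractant of monocytes through the receptor Ccr2, had 1.61, 1.53 and 1.81 on the KO late arrays, against 2.99, 3.05 and 3.00 on the WT late arrays. The highest KO late value was more than 1 unit below the lowest WT late value. The log2 difference was -1.36 ± 0.12 (SE, n = 3 per group, limma adjusted p = 0.000849), or 2.57-fold lower in KO late cells. It was -1.38, -1.52 and -1.19 on slides 1, 2 and 3. With only KO late replicate 3 left, the difference was -1.20 with an adjusted p of 0.0777, and 1 of all genes passed in that fit. Beside it, the summed signal of 22 macrophage markers was 51.6 to 100.0 in KO late cells, against 107 to 181 in WT late cells. In such bulk RNA, fewer cells that express a gene and less RNA per cell cannot be told apart.

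Csf1 was read by 3 probes, and the brightest stands for the gene. It had 2.26, 2.22 and 2.37 in KO late cells, against 2.85, 2.86 and 3.20 in WT late cells. Again the groups were apart, with a log2 difference of -0.69 ± 0.11 (adjusted p = 0.00861), or 1.61-fold lower in KO late cells. The other 2 probes gave -0.94 ± 0.16 (adjusted p = 0.0105) and -0.92 ± 0.15 (adjusted p = 0.0101). Their KO late arrays spanned 0.40 to 0.75 and 0.31 to 0.53, and their WT late arrays 1.36 to 1.66 and 1.17 to 1.39, so all 3 probes separated the groups. Without KO late replicates 1 and 2 the difference of the brightest probe was -0.60 (adjusted p = 0.252).

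Cxcl1, a neutrophil attractant of the CXC family, had 1.30, 1.59 and 0.81 in KO late cells, against -2.16, -0.15 and -1.21 in WT late cells. All 3 KO late arrays were above all WT late arrays, and the WT late arrays were spread over 2.00 units. The log2 difference was 2.41 ± 0.57 (adjusted p = 0.032), or 5.31-fold higher in KO late cells. The call was lost when any of 5 of the 6 arrays was left out (all but WT late replicate 2), with adjusted p-values up to 0.11 and differences of 1.92 to 2.92. It was also lost without KO late replicates 1 and 2 together, at 1.98 (adjusted p = 0.458).

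Cxcl5, the neighbouring neutrophil attractant, had 2.04 and 2.51 in KO late cells, against -3.80, 0.83 and -0.95 in WT late cells. KO late replicate 2 has no value, since the scanner software marked its spot as an outlier. The groups did not overlap, but the difference of 3.58 ± 1.3 did not pass (adjusted p = 0.113). With the marked spot kept it was 3.54 (adjusted p = 0.0704). With the replicate number as a block it was 4.21 and passed (adjusted p = 0.0278). WT late replicate 1 was the lowest of the 12 arrays for both Cxcl1 and Cxcl5.

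Cxcl12, the ligand of Cxcr4 and a product of many mesenchymal cells, had 5.19, 5.12 and 5.37 in KO late cells, against 4.70, 4.59 and 4.78 in WT late cells. The groups were apart by a small step, and the difference of 0.54 ± 0.19 did not pass (adjusted p = 0.114). The other Cxcl12 probe gave 0.21 ± 0.32 (adjusted p = 0.742), and there the groups overlapped. Ccl7, Ccl8, Cxcl14 and Cx3cl1 had log2 differences between -0.50 and 0.30 and did not pass.

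The same question at 3 passages gave no call. Of the 9 genes 0 passed in KO early against WT early cells, where 0.0358% of all genes passed (0.0255% higher, 0.0102% lower), and 0 of 9 had groups that did not overlap, where 9.58% of all genes did. Limma gave an unadjusted p under 0.05 for 1172 of 19575 genes in this comparison. Ccl2 had 2.32, 2.23 and 2.13 in KO early cells, against 1.66, 2.13 and 1.98 in WT early cells, a difference of 0.30 ± 0.12 (adjusted p = 0.741). The highest WT early array and the lowest KO early array had the same value to 2 decimals. Csf1 had 2.85, 2.76 and 2.69 in KO early cells, against 2.77, 2.72 and 2.93 in WT early cells, a difference of -0.04 ± 0.11 (adjusted p = 0.936). Cxcl1 had -1.19, -0.53 and -0.15 in KO early cells, against -1.75, 0.26 and -0.81 in WT early cells, so that the KO early arrays lay inside the WT early range. The 9 log2 differences ran from -0.14 to 1.00, the highest being that of Cxcl5, whose WT early arrays spread from -0.35 to 3.14.

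The next comparison asked how KO cells after 5 passages differed from KO cells after 3. In KO cells Cxcl1 and Cx3cl1 were higher late, and Ccl2 and Csf1 were lower late. These are 4 of 9 genes, where 18.9% of all genes passed (9.92% higher, 8.97% lower), and 6 of 9 had groups that did not overlap, where 51.9% of all genes did. The log2 difference was -0.57 ± 0.12 for Ccl2 (adjusted p = 0.0114) and -0.49 ± 0.11 for the brightest Csf1 probe (adjusted p = 0.0138). A further Csf1 probe had 0.59, 0.40 and 0.75 in KO late cells, against 1.46, 1.09 and 0.84 in KO early cells. The last Csf1 probe had 0.32, 0.31 and 0.53, against 1.01, 1.00 and 0.45, so there the groups overlapped. Cxcl1 was higher by 1.86 ± 0.57 (adjusted p = 0.0459), or 3.62-fold. That call was lost whichever of the 6 arrays was left out, with differences of 1.57 to 2.09 and adjusted p-values of 0.0504 to 0.16, and with no filter on dim probes (adjusted p = 0.0953). This comparison shares its KO late arrays with the first one, so the 2 are not independent.

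Cx3cl1, fractalkine, which is made as a membrane-bound chemokine and binds Cx3cr1, had 2.73, 2.71 and 2.81 in KO late cells, against 1.64, 1.98 and 2.13 in KO early cells. The late arrays were tightly grouped above the early ones, with a difference of 0.83 ± 0.19 (adjusted p = 0.0146), or 1.78-fold. Ccl7, a monocyte attractant like Ccl2, had 2.43, 2.08 and 2.81 in KO late cells, against 1.92, 1.82 and 1.72 in KO early cells. Its difference of 0.62 ± 0.22 did not pass (adjusted p = 0.0756). Cxcl14, a chemokine made by resting epithelia and fibroblasts, had 3.11, 3.27 and 3.15 in KO late cells, against 1.35, 2.13 and 2.54 in KO early cells. Its difference of 1.17 ± 0.40 did not pass either (adjusted p = 0.066).

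All 4 calls in KO cells were lost when KO late replicates 1 and 2 were left out, with 0 of 9 genes past the threshold and 168 of all genes. The differences of that fit were -0.42 for Ccl2 (adjusted p = 0.324), -0.40 for Csf1 (adjusted p = 0.317), 1.43 for Cxcl1 (adjusted p = 0.474) and 0.89 for Cx3cl1 (adjusted p = 0.195). With single arrays left out the count ran from 1 to 4. It was 1 without KO early replicate 1 and 2 without each of the KO late replicates in turn. The count of 4, without KO early replicate 3, held Cxcl14 (1.44, adjusted p = 0.0429) and not Cxcl1. With Xist as a covariate the calls of Cx3cl1 (0.70, adjusted p = 0.052) and Csf1 (-0.41, adjusted p = 0.0505) were lost.

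In WT cells, 3 of 9 genes were higher after 5 passages than after 3 and 0 were lower, where 10.6% of all genes passed (6.19% higher, 4.36% lower). The groups did not overlap for 4 of 9 genes, and for 27.7% of all genes. The genes that passed were Ccl2, Ccl7 and Cx3cl1. Ccl2, with the array values given above, was 2.12-fold higher in WT late than in WT early cells, at 1.09 ± 0.12 (adjusted p = 0.00163), and passed in all alternatives run. The WT late arrays are those of the first comparison, and the direction is opposite to that in KO cells.

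Ccl7 had 2.70, 2.77 and 2.39 in WT late cells, against 1.30, 2.10 and 1.76 in WT early cells. The late arrays were all above the early ones, by a difference of 0.90 ± 0.22 (adjusted p = 0.0304, and 0.0483 with the replicate number as a block). Cx3cl1 had 2.87, 2.42 and 2.07 in WT late cells, against 1.90, 1.60 and 1.82 in WT early cells. Its difference of 0.68 ± 0.19 was just past the threshold (adjusted p = 0.0496), and was not past it with the replicate block (adjusted p = 0.0727). With the block 2 of 9 genes passed, and with single arrays left out 1 to 3 did. Only Ccl2 was left without WT early replicate 1, WT early replicate 3 or WT late replicate 1.

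Cxcl12 had 4.70, 4.59 and 4.78 in WT late cells, against 5.77, 5.13 and 5.03 in WT early cells. The late values were all below the early ones, and the difference of -0.62 ± 0.19 did not pass (adjusted p = 0.0678). Csf1 gave 0.16 ± 0.11 (adjusted p = 0.37) with its brightest probe. Its other probes gave 0.48 ± 0.16 (adjusted p = 0.0808) and 0.56 ± 0.15 (adjusted p = 0.0449), so the probes disagreed on this call. Ccl8, a dim signal, was above background on 2 of 3 WT early arrays and on all 9 others, and passed in 0 of the comparisons. Its values ran from -6.50 to -3.36 within the WT early group alone.

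**Figure D2:**
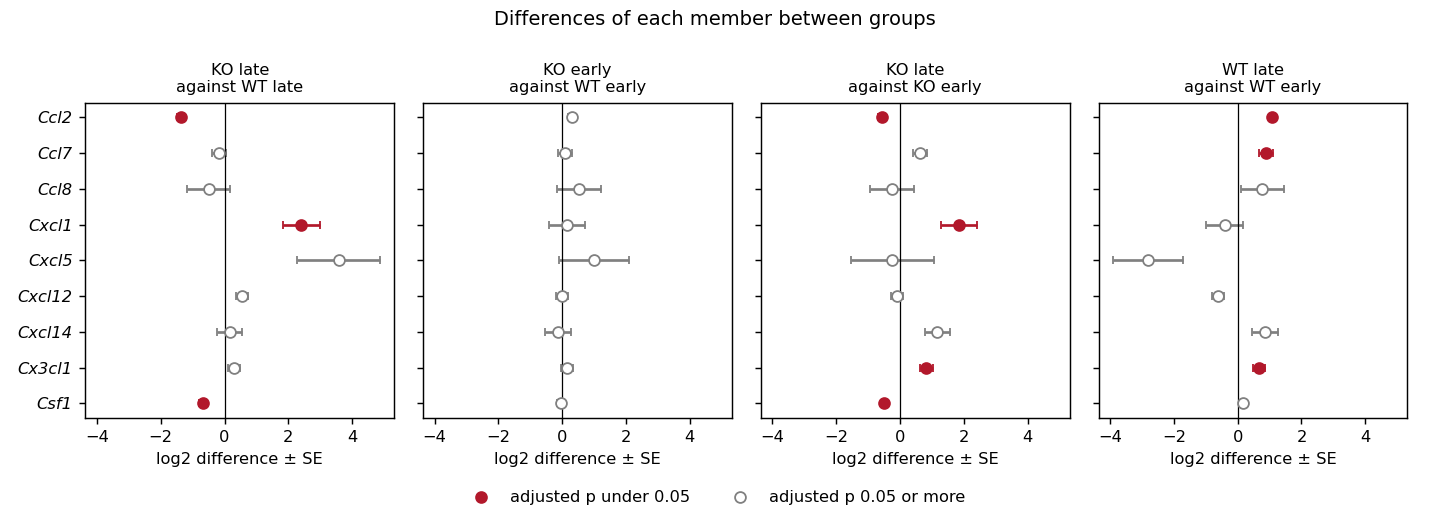
Log2 differences with their standard errors on the horizontal axis for the 9 tested genes (rows), for KO late against WT late, KO early against WT early, KO late against KO early and WT late against WT early cells. Filled points passed an adjusted p of 0.05. Ccl2 stands at -0.57 in the KO passage panel and at 1.09 in the WT passage panel.

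Whether the late against early difference was alike in the 2 genotypes was tested as an interaction, the passage difference in KO cells minus that in WT cells. As KO late replicates 1 and 2 differ in Xist from the KO early arrays, passage and source material cannot be told apart in this value. Ccl2 passed, with a log2 value of -1.66 ± 0.18 (adjusted p = 0.0111), as 1 of 9 genes where 0.0868% of all genes passed (0.0204% higher, 0.0664% lower). The call was lost with the replicate block (adjusted p = 0.0607) and without KO late replicates 1 and 2 (-1.5, adjusted p = 0.383). It was also lost without KO early replicate 2, KO late replicate 1 or KO late replicate 2 alone, with adjusted p-values of 0.0666, 0.0709 and 0.0589. Csf1 had -0.65 ± 0.16 (adjusted p = 0.155) and Cxcl1 had 2.26 ± 0.80 (adjusted p = 0.277), so that a difference between genotypes in their passage response was not shown.

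Ordered by group means, Ccl2 ran from WT late through KO early and WT early to KO late, and only WT late was apart from its neighbour in that order. Csf1, by its brightest probe, ran from WT late through WT early and KO early to KO late, and only KO late was apart. Cxcl1 was highest in KO late, which was apart from the 3 other groups, and Cxcl12 was lowest in WT late, which was apart from its neighbour. For Cxcl5, Cxcl14, Cx3cl1 and Ccl8 no neighbouring groups in the order were apart, and for Ccl7, which ran from WT late through KO late and KO early to WT early, KO late was apart from KO early.

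Over the 12 arrays the 4 genes most like Ccl2 by Pearson correlation, among 14554 named genes, were Rhbdl2, a rhomboid protease (0.953), Nppb, the natriuretic peptide BNP (0.939), Steap2, a metalloreductase (0.922), and Fhl1, a LIM domain protein of muscle (0.915). Those most like Csf1 were Col4a5, a basement membrane collagen chain (0.982), Pitpna, a phosphatidylinositol transfer protein (0.976), Ptprz1, a receptor tyrosine phosphatase (0.968), and Tmem199 (0.964). Within the set, Ccl2 correlated with Csf1 at 0.74 and with Cxcl12 at -0.75, and Csf1 with Cxcl1 at -0.82. These are descriptions over 12 arrays that share the 4 groups.

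Ccl2, Ccl7, Ccl11, Ccl12 and Ccl8 follow each other on mouse chromosome 11. Of these 5 tested genes only Ccl2 passed between KO late and WT late cells. Ccl12, a further monocyte attractant, gave 0.19 ± 0.57 (adjusted p = 0.877). Ccl11, the eosinophil attractant eotaxin, was above background on 0 of 3 arrays of both late groups, on 3 of 3 KO early and on 2 of 3 WT early arrays. It was at least 2.37-fold lower in KO late than in KO early cells (limma adjusted p = 0.0173), the bound being set by the lowest signal called above background on each KO late array. That call was lost in 3 of 6 runs with single arrays left out. In WT cells the bound was 1.33-fold lower late, and the difference did not pass (limma adjusted p = 0.202). The interaction did not pass either (limma adjusted p = 0.529).

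Cxcl1 and Cxcl5 lie in a cluster on mouse chromosome 5 with Ppbp, Pf4, Cxcl3 and Cxcl15, which were tested, and Cxcl2, which was above background on 0 arrays. Ppbp, the precursor of a neutrophil-attracting platelet chemokine, had 3.73, 3.48 and 3.96 in KO late cells, against 1.47, 2.17 and 0.16 in WT late cells. All KO late arrays were above all WT late ones, by 2.46 ± 0.52 (adjusted p = 0.0223), or 5.49-fold. Without KO late replicates 1 and 2 it was 2.70 (adjusted p = 0.261). It was also 5.77-fold higher in KO late than in KO early cells, which had 1.23, 1.16 and 1.20, at 2.53 ± 0.52 (adjusted p = 0.00947). Cxcl15 gave 2.91 ± 0.93 between KO late and WT late cells (adjusted p = 0.0826), with WT late replicate 1 at -6.25. Pf4, platelet factor 4, gave -1.21 ± 0.52 (adjusted p = 0.179), opposite in sign to the 5 other tested genes of the cluster. In all, 2 of the 6 tested genes were higher in KO late than in WT late cells and 0 lower. Cxcl3 did not reach the background threshold on any WT late array, and was at least 3.70-fold lower in WT late than in WT early cells (limma adjusted p = 0.0383). That call was lost in 5 of 6 runs with single arrays left out. In KO cells Cxcl3 was above background on 3 of 3 early and 1 of 3 late arrays. Its late against early difference there of -2.75 ± 0.94 did not pass (limma adjusted p = 0.0663).

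**Figure D3:**
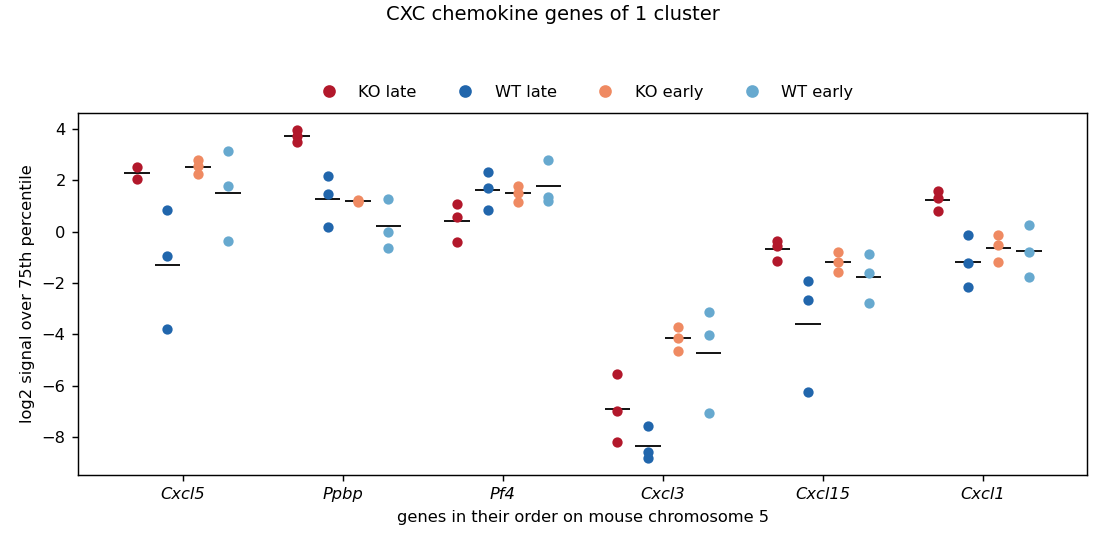
Log2 signal over the 75th percentile (vertical axis) of the 6 tested CXC chemokine genes of 1 cluster, in their order along mouse chromosome 5. For each gene the groups KO late, WT late, KO early and WT early stand from left to right, points are arrays and lines are means. For Ppbp and Cxcl1 the 3 KO late arrays lie above the other 9, and Cxcl5 shows 2 KO late arrays.

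Counts in the lists below stand beside the shares of all genes that passed. These were 7.84% for KO late against WT late, 18.9% for KO late against KO early and 10.6% for WT late against WT early cells. A list of 30 other chemokines had 19 tested genes. Of these 2 were higher and 2 lower in KO late than in WT late cells, with a median of -0.27. Ppbp and Ccl28, a mucosal chemokine (0.90 ± 0.24, limma adjusted p = 0.0477), were higher. The Ccl28 call was lost in 5 of 6 runs with single arrays left out. Ccl28 gave a like difference between KO early and WT early cells, which did not pass (0.91 ± 0.24, limma adjusted p = 0.741). Ccl6 (-1.33 ± 0.30, adjusted p = 0.0291) and Ccl9 (-1.20 ± 0.27, adjusted p = 0.027), both made by myeloid cells in mice, were lower. In KO late against KO early cells Ppbp was higher and Ccl6, Ccl9 and Ccl11 were lower. Between WT late and WT early cells Ccl17 (2.59 ± 0.59, adjusted p = 0.0239), Cxcl16 (1.32 ± 0.34, adjusted p = 0.0362, and 0.0574 with the replicate block) and Ccl5 (0.82 ± 0.21, adjusted p = 0.0353) were higher, and Cxcl3 was lower. Of 5 tested growth factors of myeloid cells other than Csf1, Flt3l was higher in KO late than in WT late cells (0.73 ± 0.15, adjusted p = 0.0184). Kitl was lower in KO late than in KO early cells (-1.75 ± 0.47, adjusted p = 0.0279). Il34, the other ligand of Csf1r, gave -0.23 ± 0.22 between KO late and WT late cells (adjusted p = 0.566). Csf2 and Csf3 were above background on 0 arrays.

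Of 24 listed receptors 9 were tested, and 0 passed between KO late and WT late cells, with a median of -0.90. Limma's adjusted p was 0.124 for Csf1r, the receptor of Csf1 (-1.11 ± 0.41), 0.109 for Cx3cr1, that of Cx3cl1 (-1.22 ± 0.43), and 0.109 for Ackr3, a scavenging receptor of Cxcl12 (0.70 ± 0.25). Ccr2 and Ccr6, the receptors of Ccl2 and Ccl20, were above background on 0 of 12 arrays, Cxcr2 on 1, and Ccr8 on 4 with 1 of its 2 probes. Cxcr4 was higher late than early in KO cells (1.52 ± 0.45, adjusted p = 0.0412) and in WT cells (2.18 ± 0.45, adjusted p = 0.0162). Ackr4, a scavenger of CC chemokines, was lower late than early in KO cells (-1.97 ± 0.24, adjusted p = 0.00101) and in WT cells (-1.82 ± 0.24, adjusted p = 0.00267).

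Among 17 tested inflammatory products of fibroblasts, 5 were higher and 1 was lower in KO late than in WT late cells, with a median of 0.14. Lcn2, an iron-sequestering protein (1.15 ± 0.18, adjusted p = 0.00737), C3 of complement (0.98 ± 0.20, adjusted p = 0.0192), Il33 (1.40 ± 0.30, adjusted p = 0.0231) and Tnfaip6, a hyaluronan-binding protein (1.05 ± 0.23, adjusted p = 0.0252), were among the higher. Gdf15, a stress cytokine, was lower (-0.92 ± 0.24, adjusted p = 0.0477). Late against early, 7 were higher and 0 lower in KO cells, and 7 were higher and 1 lower in WT cells. Ptgs2, the inducible cyclooxygenase, was 4.83-fold higher late in KO cells (adjusted p = 0.00283) and 6.17-fold higher late in WT cells (adjusted p = 0.00281). Il6 was 3.62-fold higher late in KO cells (adjusted p = 0.00216) and 2.25-fold higher late in WT cells (adjusted p = 0.0241).

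Of 34 tested genes of NF-kB signalling, 3 were higher and 3 lower in KO late than in WT late cells, with a median of -0.11. Bcl3, a nuclear partner of NF-kB (1.05 ± 0.28, adjusted p = 0.0457), Il1r1, the interleukin 1 receptor (0.74 ± 0.14, adjusted p = 0.017), and Birc2 were higher. Tnf (-1.28 ± 0.30, adjusted p = 0.0306), Tnfaip3, a feedback inhibitor of NF-kB (-1.10 ± 0.21, adjusted p = 0.0155), and Tlr2 (-0.69 ± 0.12, adjusted p = 0.0117) were lower. Between WT late and WT early cells 8 were higher and 1 lower, and Tnfaip3 was 2.85-fold and Tlr2 2.05-fold higher late. Il1b was at least 2.37-fold higher late in WT cells, being above background on 0 of 3 WT early arrays. In KO late against KO early cells 5 were higher and 0 lower, among them Nfkbiz at 3.28-fold (adjusted p = 0.000905), which was 2.25-fold higher late in WT cells as well (adjusted p = 0.00865). As shares of the 34 genes, 17.6% passed between KO late and WT late cells, where 7.84% of all genes did. Between WT late and WT early cells it was 26.5%, against 10.6% of all genes. Between KO late and KO early cells it was 14.7%, below the 18.9% of all genes. Of 11 tested genes of chemokine processing and mRNA decay, 0 passed between KO late and WT late cells. Zfp36, which speeds the decay of cytokine mRNAs, was higher late than early in KO cells (1.35 ± 0.25, adjusted p = 0.00615) and in WT cells (0.92 ± 0.25, adjusted p = 0.0437, and 0.0634 with the replicate block).

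Over these lists and that of calcium signalling, 20 genes passed between KO late and WT late cells. Without KO late replicates 1 and 2, 20 of them had the same sign and 0 passed (adjusted p from 0.145 for Lcn2 to 0.555 for Rcan2). Lcn2 alone passed whichever single array was left out. Between KO late and KO early cells 22 passed. Without the same 2 arrays all 22 had the same sign and 2 passed, Lcn2 (1.70, adjusted p = 0.0375) and C3 (2.19, adjusted p = 0.0301), while Cxcr4 was at 0.64 (adjusted p = 0.644) and Il1b at 0.70 (adjusted p = 0.485). Of the 22, 11 passed whichever single array was left out, among them Ppbp, Ackr4, Zfp36, Nfkbiz, Il6, Ptgs2, Lcn2 and C3. Of 26 genes past the threshold between WT late and WT early cells, 22 passed with the replicate block and 10 whichever single array was left out. Ackr4, Nfkbiz, Tnfaip3, Tlr2, Il1b, Ptgs2 and C3 were among those 10. The genes that missed it with the block, beside Cxcl16 and Zfp36, were Mmp14 (adjusted p = 0.0538) and Lcn2 (adjusted p = 0.0565).

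The cultures also held signal of macrophages. Csf1r, the receptor of Csf1, was above background on 12 of 12 arrays, and Ccr2, that of Ccl2, on 0 of 12. The summed signal of the 22 macrophage markers, in multiples of each array's 75th percentile, was 77.3, 100.0 and 51.6 in KO late cells, against 107, 164 and 181 in WT late cells. It was 71.1, 83.3 and 94.9 in KO early cells, against 143, 74.1 and 74.5 in WT early cells. Of the 22 markers, 21 were negative between KO late and WT late cells, with a median of -1.13, and 0 passed as higher and 2 as lower, Cd68 (-1.43) and Lyz2 (-1.32). That is 9.09% of the markers, where 7.84% of all genes passed. On the same arrays in the same order, Ccl2 was at 1.61, 1.53 and 1.81 in KO late and 2.99, 3.05 and 3.00 in WT late cells. It was at 2.32, 2.23 and 2.13 in KO early and 1.66, 2.13 and 1.98 in WT early cells. Csf1 was at 2.26, 2.22 and 2.37 in KO late and 2.85, 2.86 and 3.20 in WT late cells. It was at 2.85, 2.76 and 2.69 in KO early and 2.77, 2.72 and 2.93 in WT early cells. The part of these markers in the results was not tested beyond these values.

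**Figure D4:**
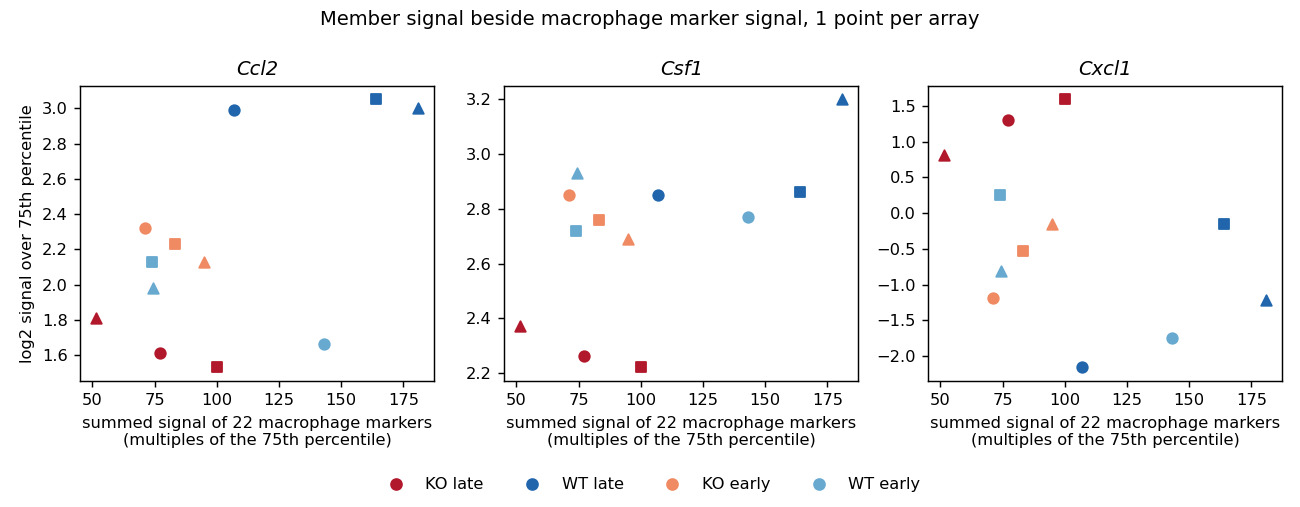
Log2 signal over the 75th percentile of Ccl2, Csf1 and Cxcl1 (vertical axes) against the summed signal of 22 macrophage markers (horizontal axes, in multiples of the 75th percentile), 1 point per array, coloured by group and shaped by replicate number (circle 1, square 2, triangle 3). WT late replicates 1, 2 and 3 have sums of 107, 164 and 181 with Ccl2 at 2.99, 3.05 and 3.00. KO late replicates have 77.3, 100.0 and 51.6 with Ccl2 at 1.61, 1.53 and 1.81. WT early replicates have 143, 74.1 and 74.5 with Ccl2 at 1.66, 2.13 and 1.98. KO early replicates have 71.1, 83.3 and 94.9 with Ccl2 at 2.32, 2.23 and 2.13.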

How the data were processed

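RNA of 12 fibroblast samples was read on 1-colour arrays. Per the file headers, each deposited scanner file gives a background-subtracted intensity per spot from Agilent Feature Extraction 11.5.1.1 (10.7.3.1 per the submitters' processing notes). The authors' deposited value table holds log2 values centred per probe and was used as an alternative. From the scanner intensities, outlier spots (100 to 212 per array) were left out, repeated spots averaged, and the log2 signal reduced by each array's 75th percentile (568.9 to 902.5). Probes were kept if called well above background on every array of some group (24466), with the brightest probe per gene. Symbols came from accessions matched to RefSeq (27969 of 28290 probes, GRCm38.p6).

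In limma 3.58.1 (R 4.3.3), 1 model of the 4 groups took in all 12 arrays and 19575 genes, with 8 residual and 2.21 prior degrees of freedom and 5 contrasts, and p-values were Benjamini-Hochberg adjusted over all genes at 0.05. The scripts were tested on simulated arrays. Each gene had its mean over the 12 arrays and 1 spread pooled over the 4 groups, and changes were added on the KO late arrays. There, 74 of 100 genes changed by 1 log2 unit and 91 of 100 changed by 2 were recovered, with 12 false calls among 19483 genes. The real groups differ in spread, with a median SD per gene of 0.084 in KO late, 0.16 in WT late, 0.141 in KO early and 0.214 in WT early. These recoveries therefore do not describe the real comparison of KO late with WT late. The number of arrays limits the precision. The smallest two-sided p of an exact permutation test of 1 gene is 0.1 with 3 arrays against 3.

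The members, the gene lists and the rule for naming genes were chosen with earlier results of these data known. The rule named all 10 genes, Itpr2, 8 receptors, the 4 genes most correlated with Ccl2 and with Csf1, up to 4 genes per direction and list with the smallest adjusted p, and genes of small counts. Genes next to members on the chromosome were added later. Same-numbered arrays also shared a slide, so replicate number and slide cannot be told apart, also not in the replicate block. They deviated together in WT cells (correlations of 0.28, 0.246 and 0.141 between late and early). Blocked values therefore stand beside WT passage results whose call the block ended. In the other comparisons at least 1 pair was under 0.1. The files held no gMeanSignal column, so normexp, an alternative, used the median spot signal. Further alternatives were quantile normalization, no filter, a replicate block, array weights by group, only the groups compared, the mean of probes, Xist as a covariate, both KO late arrays with Xist left out, and single arrays left out. Keeping outlier spots, and single list genes under the block and with arrays left out, were added after the data were seen.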

Additional observations from a re-analysis of the deposited data

Results flagged for a closer look

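The late against early difference of Ccl2 was unlike in the 2 genotypes by the interaction test, with a log2 value of -1.66 ± 0.18 (limma adjusted p = 0.0111). This difference was -0.57 in KO cells and 1.09 in WT cells. Within slides 1, 2 and 3 it was -0.71, -0.70 and -0.32 in KO cells and 1.33, 0.92 and 1.01 in WT cells. KO late replicates 1 and 2 differ in Xist from the KO early arrays of the same number. Passage and source material therefore cannot be told apart in the KO values or in the interaction. The adjusted p ranged from 0.0024 to 0.383 over the alternatives and from 0.0122 to 0.0709 over single arrays left out.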

How the results depend on the processing

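Between KO late and WT late cells the count of changed genes among the 9 was 3, against 5 with array weights by group (Ccl2, Csf1, Cxcl1, Cxcl5 and Cxcl12), 0 without KO late replicates 1 and 2, and 2 to 3 with single arrays left out. In KO late against KO early cells 4 became 0 without both arrays and 1 to 4 with single arrays left out. Between WT late and WT early cells 3 became 1 with no filter, with array weights or with only the groups compared, 2 with the replicate block, and 1 to 3 with single arrays left out. For the interaction 1 became 0 with no filter (Ccl2 adjusted p = 0.0519), with the replicate block or without both KO late arrays, and 0 to 1 with single arrays left out. KO early against WT early gave 0 in every setting run. Cxcl5 passed between KO late and WT late cells with the replicate block (adjusted p = 0.0278), array weights (0.0284) and Xist as a covariate (0.0342). The replicate block moved no other count of the 9 genes by over 1.5 times. The lone KO late array left by dropping both was taken to have the spread of the other groups, and that fit has fewer samples. The cause of the other shifts was not tested.

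Values that changed sign were all short of the threshold. Without both KO late arrays, Ccl7 was 0.19 in KO late against WT late and 0.09 in the interaction, and Cxcl12 was 0.06 in KO late against KO early. Xist as a covariate gave 0.37 for Ccl8 and 0.66 for Cxcl5 there, the replicate block 0.39 for Cxcl5, and quantile normalization 0.10 for Cxcl12. In KO early against WT early, the mean of probes gave 0.04 for Csf1 and the value table -0.37 for Ccl8, which was -0.12 in WT late against WT early. With single arrays left out, KO early against WT early ran from -0.11 to 0.29 for Ccl7, -0.36 to 1.21 for Ccl8, -0.35 to 0.66 for Cxcl1 (-0.09 without KO early replicate 3), -0.08 to 0.02 for Csf1 and -0.41 to 0.19 for Cxcl14. WT late against WT early ran from -0.11 to 1.46 for Ccl8 and -0.92 to 0.11 for Cxcl1 (0.08 without WT late replicate 1), KO late against WT late from -0.32 to 0.55 for Cxcl14, and KO late against KO early from -0.21 to 0.04 for Cxcl12. The interaction ran from -0.17 to 0.69 for Cxcl14 (-0.03 without KO early replicate 1) and -0.04 to 0.36 for Cx3cl1.

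In the lists, the count of 2 for processing and decay in WT late against WT early became 1 with quantile normalization and 0 with the block (Zfp36 adjusted p = 0.0634, Mmp14 0.0538). In KO late against KO early cells the 2 receptors became 1 with quantile normalization and the 4 other chemokines 2 with the block, which kept Ppbp and Ccl11 and not Ccl6 (adjusted p = 0.0647) and Ccl9 (0.0632). Tlr2 missed it there too (0.073), as did Tnf (0.051), Ptx3 (0.0579) and Itpr1 (0.0667) between KO late and WT late cells. Without both KO late arrays the lists had 0 calls in KO late against WT late cells, and in KO late against KO early cells 2, both inflammatory products. Of all genes, 1534 changed between KO late and WT late cells (678 higher, 856 lower), against 1792 (1002 and 790) with quantile normalization, 618 with no filter, 3106 with array weights, 1 without both KO late arrays, and 255 to 1155 with single arrays left out. Between WT late and WT early cells 2066 (1212 higher, 854 lower) became 1780 (849 and 931) with normexp, 1005 with no filter and 556 with array weights. For KO late against KO early cells 3696 (1941 higher, 1755 lower) became 3042 (1287 and 1755) with normexp, 6604 with array weights and 168 without both KO late arrays. The interaction's 17 (4 higher, 13 lower) became 13 (8 and 5) with quantile normalization, 42 (24 and 18) with normexp, 3 with no filter, 4 with the replicate block and 0 without both KO late arrays. It was 1 without KO early replicate 2, KO late replicate 1 or KO late replicate 2, and 8 to 230 with other single arrays left out (230 without KO early replicate 3).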

Other observations

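Of 13 listed genes of calcium release, calcineurin and NFAT, all tested, 1 was higher and 2 were lower in KO late than in WT late cells. Rcan1 (-1.19 ± 0.26, adjusted p = 0.0259) and Rcan2 (-1.01 ± 0.26, adjusted p = 0.0406), inhibitors of calcineurin, were lower. Itpr1, the type 1 inositol trisphosphate receptor, was 1.37-fold higher (0.46 ± 0.12, adjusted p = 0.0424, and 0.0667 with the replicate block). Rcan2 was also lower in KO late than in KO early cells (-0.97 ± 0.26, adjusted p = 0.026), where Ppp3cc, a catalytic subunit of calcineurin, was higher (0.43 ± 0.10, adjusted p = 0.0177). Between WT late and WT early cells only Itpr2 itself passed, as higher late (0.66 ± 0.15, limma adjusted p = 0.0246). That call was lost when any of 4 of the 6 arrays was left out. In KO early against WT early cells 0 of the 13 passed by limma.

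Markers of other cell types were also listed. Between KO late and WT late cells, 0 of 4 tested endothelial markers passed, 1 of 5 epithelial and 1 of 3 skeletal muscle markers were lower, and 1 of 6 neural and glial markers was higher and 2 were lower. Of 16 fibroblast markers 3 were higher and 2 lower, and their summed signal was 747 to 819 in KO late and 685 to 761 in WT late cells. Of 7 neutrophil and mast cell markers on the array 1 was tested and 0 passed. Their part in the results above was not tested.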
